A study of Mus musculus with 4 samples.

Results

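Glycolysis is the chain of enzymes that splits glucose into pyruvate, and the genes described here are its enzymes with their tissue isoforms (isozymes), the glucose and lactate transporters at its ends, and the kinases that hold pyruvate back from the mitochondria. The 34 genes were listed by symbol, and all 34 matched 1 gene each among the 50600 genes in every file. They were measured in primary T-helper 17 (Th17) cells, the CD4 T cells that make interleukin-17, of mouse strain C57BL/6NJ, which the labels place in a differentiation protocol for CD4 T cells. The study has 1 group, Th17 cells, with 4 libraries that the labels number as biological replicates 1 to 4. It has no second condition, no engineered allele and no named treatment, and the labels do not give sex or age. File headers carry a tag of 16 hr on all 4 libraries, and its meaning is not explained. The comparisons are therefore between isozymes within each library and between the 4 libraries.

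The libraries held 24696730 to 37025016 fragments counted in genes, and the 34 genes took 1.25% ± 0.0313 of them (every ± here is an SD over n = 4 libraries). Levels are in TPM, fragments per base of exon scaled to a total of 1000000 in each library, so that genes of different length can be compared. A count of 0 allows up to 3 fragments, taken here as the floor, which for a 1 kb gene is 0.409 TPM in the shallowest library and as low as 0.275 TPM in the others, counting error only. Xist was at 186 and 161 TPM in replicates 1 and 2 and at 0.687 and 0.721 TPM in replicates 3 and 4. Ddx3y, a gene of chromosome Y, had 0.442 and 0.446 TPM in replicates 1 and 2 and 88.6 and 83.2 TPM in replicates 3 and 4. Both genes thus split the libraries, with the pattern of female cells in replicates 1 and 2 and of male cells in replicates 3 and 4. The labels nevertheless give 1 donor identifier for all 4. Within each of these pairs separate animals or cultures are not stated, so the spread between libraries may be partly technical. Of the genes that mark the labelled cells, the general T-cell genes Trac and Cd4 averaged 1289 and 237 TPM. The Th17 cytokine genes Il17f and Il17a averaged 694 and 20.02 TPM, and the receptor genes Ccr6 and Il23r 14.3 and 2.14 TPM. Of 25 markers of CD8 T cells, B cells, myeloid cells, red cells, muscle, liver and natural killer cells, 2 reached 1 TPM in every library and 14 had no fragment at all. The 2 were the CD8 T-cell marker Cd8b1 and the myeloid marker Cd68, at 7.32 and 5.24 TPM on average. The other CD8 markers, Cd8a and Gzmb, averaged 0.102 and 0.0971 TPM, under their floors of 0.113 and 0.289 TPM in the shallowest library. Of the other myeloid markers the highest was Itgam, at 0.0314 TPM, also under its floor. In bulk RNA, fewer cells of a type and less RNA per cell cannot be told apart.

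As background, glycolysis first spends ATP to trap glucose and make it splittable, then earns ATP and reduced NAD while its products are turned into pyruvate. Lactate dehydrogenase can then return the NAD by making lactate, which leaves the cell through monocarboxylate transporters, or pyruvate can enter the mitochondria through pyruvate dehydrogenase. Activated T cells, Th17 cells among them, are known for making lactate even when oxygen is present. Most steps have several isozymes that are used in different tissues and respond to different signals.

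The pathway was present at every step, with a wide range of levels. In every library 29 of the 34 genes reached 1 TPM, 23 reached 10 TPM, 12 reached 100 TPM and 4 reached 1000 TPM. Among 21764 protein-coding genes the same limits were reached by 44.8%, 33.9%, 8.72% and 0.542%. The median of the 34 mean levels was 36.2 TPM, and that of all protein-coding genes 0.275 TPM. Among those at 1 TPM or more in every library, the medians were 64.2 TPM for the 29 glycolysis genes and 31.2 TPM for 9761 protein-coding genes. Ldha was the 20th most abundant gene of the files by mean level and Pkm the 45th. The 5 genes below 1 TPM were Aldoc, Hk3, Pgam2, Pklr and Pdk4, isoforms known from brain, myeloid cells, muscle, liver and fasting tissue.

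**Figure D1:**
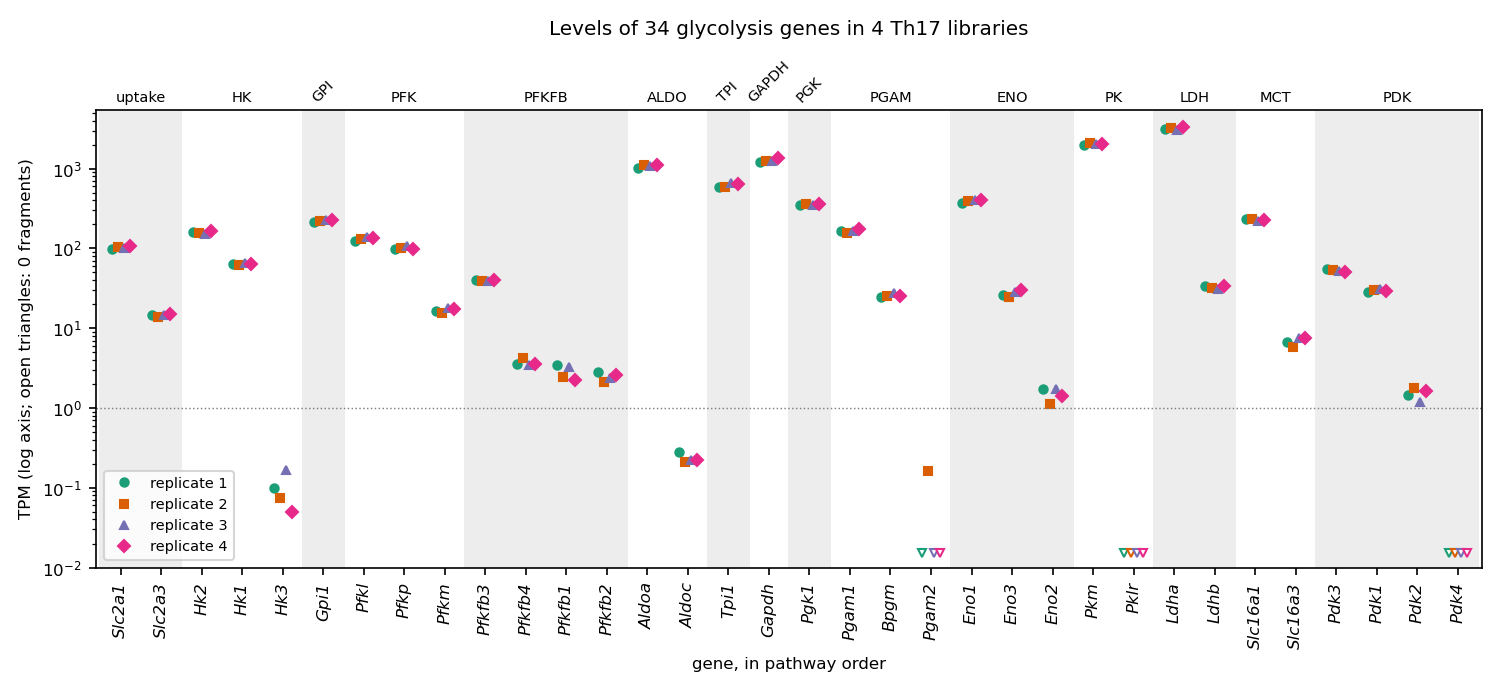
TPM (log axis) of each of the 34 genes in each of the 4 Th17 libraries, in pathway order, with the isozymes of a step side by side from high to low; open triangles stand for 0 fragments and the dotted line for 1 TPM. Ldha, Pkm, Gapdh and Aldoa lie above 1000 TPM in every library, while Pklr and Pdk4 have no fragment in any.

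Glucose enters T cells through the facilitative transporters GLUT1 and GLUT3, encoded by Slc2a1 and Slc2a3. Slc2a1 (chromosome 4) was at 99.6, 104, 102 and 108 TPM in replicates 1 to 4. Slc2a3 (chromosome 6) was at 14.6, 13.96, 14.6 and 14.9 TPM. Slc2a1, the transporter that T cells are known to raise on activation, was the higher of the pair in 4 of 4 libraries, by 6.83-fold to 7.45-fold, and held 87.7% ± 0.411 of their summed level. Per base of the principal transcript, a length explained with hexokinase, the fold was 4.18 and the share 80.7% ± 0.592. The difference of log2(TPM + 1) was 2.75 ± 0.05 (exact two-sided sign-flip permutation test, adjusted p = 0.129 over all 29 pairs of these genes within a step). With 4 libraries the smallest p this test can give lies above 0.05 even before adjustment, so no pair can pass that threshold. The direction was the same in 4 of 4 libraries in 28 of the 29 pairs, which therefore share this adjusted p.

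Hexokinase traps glucose in the cell as glucose phosphate. Hk2, the inducible isozyme, was at 161, 158, 151 and 167 TPM in replicates 1 to 4. Hk1, the isozyme of most tissues, was at 64.3, 62.7, 65.6 and 64.03 TPM. The share of a step is of the summed TPM of its genes among the 34. At this step that leaves out Adpgk, an ADP-using glucokinase at 34.4 TPM on average. Every library had more Hk2 than Hk1, by 2.30-fold to 2.61-fold, and Hk2 held 71.2% ± 1.10 of the step. This margin rests on the length by which the fragments are divided. The files give the summed length of all annotated exons, 8532 bases for Hk1 and 5969 for Hk2, whereas the longest principal transcript (the one that the APPRIS database marks as the main coding form) has 3851 and 5513 bases. Per base of the principal transcript, Hk2 was at 119 ± 4.94 and Hk1 at 98.01 ± 1.80 TPM, Hk2 was still the higher in 4 of 4 libraries, and its share was 54.8% ± 1.32. Per base of the median protein-coding transcript, 581 bases for Hk1 and 2792 for Hk2, the order turned, with a log2 difference of -1.46. Hk3, the myeloid isozyme, was counted with 14 fragments in all and averaged 0.0980 TPM, under its floor of 0.111 TPM in the shallowest library. The myeloid markers Lyz2 and S100a8 had no fragment, and the 6 myeloid markers summed to between 3.93 and 6.42 TPM, most of it Cd68.

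The next enzymes rearrange the sugar and commit it to splitting. Gpi1, which turns glucose phosphate into fructose phosphate and has no isozyme here, was at 222 ± 5.45 TPM, or 343 ± 8.41 TPM by principal transcript. Phosphofructokinase, the committed step, was carried by a pair of isozymes. Pfkl, the liver type, was at 125, 131, 138 and 135 TPM in replicates 1 to 4. Pfkp, the platelet type, was at 99.3, 100.04, 106 and 99.07 TPM. Pfkl was above Pfkp in 4 of 4 libraries, by 1.26-fold to 1.37-fold. By principal transcripts that margin all but vanished, with Pfkl at 163 ± 7.08 and Pfkp at 158 ± 5.42 TPM, and Pfkl higher in 3 of 4 libraries. By median protein-coding transcripts the order turned, with Pfkl minus Pfkp at -0.49 on the log2 scale. The muscle type Pfkm was at 16.8 ± 1.08 TPM, 6.70% ± 0.328 of the step, or 3.56% ± 0.181 by principal transcripts, and below both others in every library at either length.

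Phosphofructokinase is switched on by a signalling sugar, fructose bisphosphate of the regulatory kind, which the bifunctional PFKFB enzymes make and break. Pfkfb3, the isozyme whose kinase activity far exceeds its phosphatase activity, was at 39.6, 39.3, 39.5 and 40.6 TPM in replicates 1 to 4. It had the narrowest spread of the 29 genes at 1 TPM or more, a coefficient of variation of 1.47%, and held 81.5% ± 1.22 of the step. The other isozymes lay close together, with Pfkfb4 at 3.69 ± 0.342, Pfkfb1 at 2.84 ± 0.623 and Pfkfb2 at 2.48 ± 0.289 TPM. Pfkfb3 exceeded each of them in 4 of 4 libraries, by 9.37-fold or more. Among the lower isozymes the ranges of Pfkfb1 and Pfkfb2 overlapped, and Pfkfb1 was higher in 3 of 4 libraries (log2 difference 0.13 ± 0.21, exact sign-flip permutation p = 0.375). Pfkfb4 was above Pfkfb1 in 4 of 4 libraries, but by principal transcripts in 1 of 4. Tigar, which breaks down the same signalling sugar and is not an isozyme of this step, was at 57.0 TPM on average.

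Aldolase splits the sugar into trioses. Aldoa, the muscle and general isozyme, was at 1028 to 1120.4 TPM, and Aldoc, the brain isozyme, had 30 fragments in all, 0.234 ± 0.0322 TPM. The ratio of their summed fragments per base was 4564, with a 95% Poisson interval of 3197 to 6764. By principal transcripts Aldoa was at 1862 ± 72.9 TPM and the fold of the mean levels was 9841. Tpi1, which interconverts the trioses, was at 581, 595, 652 and 637 TPM in replicates 1 to 4. Replicate 1 was the lowest in Tpi1 and also in Aldoa, Gapdh, Eno1 and Pkm.

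The ATP-earning enzymes followed. Gapdh, which makes reduced NAD and is often used as a reference gene, was at 1214, 1239, 1243 and 1343 TPM in replicates 1 to 4. Pgk1, the first ATP-making enzyme of the pathway, was at 348, 359.5, 351 and 361 TPM. Replicate 4 was the highest in both. Processed copies of both genes are scattered through the genome, and fragments that align to several places are left out by the counting program's default. Of the 50-base words in the transcripts of Pgk1, 53.9% also occurred in annotated transcripts of other genes, chiefly the copies Pgk1-rs7 and Gm5537. The share was 25.1% for Gapdh, 25.99% for Eno1, 36.2% for Pgam1 and 9.26% for Ldha, and 9 of the 34 genes exceeded 10%. Dividing by the remaining length only would put Pgk1 at 769 ± 14.3 and Gapdh at 1683 ± 76.3 TPM. By principal transcripts Gapdh was at 2528 ± 115 TPM. Pgk1 lies on chromosome X, as do Pdk3 and Pfkfb1. Between replicates 1 and 2, where Xist was high, and replicates 3 and 4, where it was low, the ranges of Pgk1 and Pfkfb1 overlapped and those of Pdk3 did not. Of the 9761 protein-coding genes at 1 TPM or more, 35.5% did not overlap either, so the split of Pdk3 is a common one.

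Phosphoglycerate mutase and enolase were led by their general isozymes. At the mutase step the size of the lead depends on the length. Pgam1 held 86.4% ± 0.951 of that step, 80.3% ± 1.28 by principal transcripts and 52.4% by median protein-coding transcripts. Pgam1 was at 165, 155, 163 and 176 TPM in replicates 1 to 4, and the muscle isozyme Pgam2 had 1 fragment in all, in replicate 2. Its level stayed under the floor of 0.487 TPM. The ratio of summed fragments per base, Pgam1 over Pgam2, was 5404, with a Poisson interval of 970 to 213439. Bpgm, the related enzyme that makes the haemoglobin ligand bisphosphoglycerate in red cells, was at 25.8 ± 1.36 TPM, while the 5 red-cell markers, haemoglobin genes among them, had no fragment in any library. Eno1 was at 370.0, 387, 406 and 401 TPM in replicates 1 to 4, and by principal transcript at 715 ± 29.8 TPM on average. Eno3, the muscle isozyme, followed at 27.2 ± 2.38 TPM and Eno2, the neuronal isozyme, at 1.51 ± 0.291 TPM. Eno1 was 13.4-fold to 15.6-fold above Eno3, and Eno3 was 14.8-fold to 21.9-fold above Eno2, in 4 of 4 libraries each. By principal transcripts Eno1 was 34.3-fold above Eno3 and Eno3 11.9-fold above Eno2, so that the larger of these gaps depends on the length. Of the 4 muscle markers, Ckm and Myh4 had no fragment and the list summed to 0.622 TPM at most.

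Pyruvate kinase makes the second portion of ATP and its product, pyruvate. Pkm (chromosome 9) was at 1991, 2065, 2016 and 2055 TPM in replicates 1 to 4. No fragment was counted for Pklr, the isozyme of liver and red cells, whose floor in the shallowest library is 0.126 TPM. Pkm was at least 15736-fold higher, taking the lowest Pkm level against the highest floor of 3 fragments in a library. The Pkm gene itself makes M1 and M2 forms by using one or the other of a pair of exons, and the gene counts do not tell these apart. In the annotation those exons, of 167 bases each, lie at 59675029 to 59675195 and at 59675568 to 59675734 on chromosome 9 (mm10). Both fall inside another annotated gene on the same strand, Gm49759 (59672814 to 59676700), which was assigned 9680 fragments over the 4 libraries. By the counting program's default, a fragment that touches exons of both genes is given to neither, so the 767 bases of Pkm exon that the genes share would add length but no fragments. Without those bases Pkm would be at 2400 ± 40.9 TPM.

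Lactate dehydrogenase was the most abundant step by summed exon length. By median protein-coding transcripts Pkm, at 6325 TPM, was above Ldha, at 5983 TPM. Ldha (chromosome 7) was at 3170.3, 3270.4, 3068 and 3282 TPM in replicates 1 to 4. Ldhb (chromosome 6) was at 34.2, 31.7, 30.8 and 34.2 TPM. Ldha encodes the subunit known for turning pyruvate into lactate and Ldhb the heart-type subunit known for the reverse direction. Ldha exceeded Ldhb in 4 of 4 libraries, by 92.8-fold to 103-fold, and held 98.99% ± 0.0459 of the step, or 99.3% ± 0.0297 by principal transcripts, where the fold was 152. The difference of log2(TPM + 1) was 6.57 ± 0.06. Of the 50-base words of Ldhb, 20.99% occurred in other genes, chiefly the copy Gm5514.

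Lactate leaves the cell through monocarboxylate transporters, and here the isoform usually tied to lactate export was the minor one. Slc16a1, encoding MCT1, was at 235, 232, 222 and 227 TPM in replicates 1 to 4. Slc16a3, encoding MCT4, the low-affinity exporter of strongly glycolytic cells, was at 6.79, 5.80, 7.62 and 7.58 TPM. Slc16a1 was 29.2-fold to 40.01-fold higher in 4 of 4 libraries and held 97.1% ± 0.405 of their sum. Both proteins need the chaperone basigin to reach the cell surface, and its gene Bsg was at 515 TPM on average. Emb, encoding the related chaperone embigin, was at 227 TPM.

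The promoters of the lactate genes are shown as an example, chosen with the levels known. Isozyme pairs of other steps, such as Aldoa and Aldoc, differed more widely in level and are not shown. Each line holds the 250 bases before an annotated start in RefSeq, for Ldha 1 of its 2 starts (build GRCm38.p6, which shares its coordinates with mm10), 5′ to 3′ on the gene's own strand. Capitals mark matches, on either strand, to the E-box CACGTG, which Myc can bind, and to ACGTG and GCGTG, the core letters of hypoxia response elements. Every CACGTG also holds ACGTG on both strands, so the marks overlap.
Ldha, chr7:46845554-46845803, plus strand: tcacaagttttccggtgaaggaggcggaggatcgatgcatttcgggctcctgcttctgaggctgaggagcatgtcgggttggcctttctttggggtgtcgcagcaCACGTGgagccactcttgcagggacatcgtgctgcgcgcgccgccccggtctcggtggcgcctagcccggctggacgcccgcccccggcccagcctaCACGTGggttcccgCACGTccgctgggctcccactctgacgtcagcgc
Ldhb, chr6:142507958-142508207, minus strand: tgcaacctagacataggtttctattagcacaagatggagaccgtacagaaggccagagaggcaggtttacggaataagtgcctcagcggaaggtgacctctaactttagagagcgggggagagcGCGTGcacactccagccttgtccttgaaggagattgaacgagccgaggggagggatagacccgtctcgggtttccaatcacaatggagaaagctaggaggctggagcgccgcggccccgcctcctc
Slc16a1, chr3:104638414-104638663, plus strand: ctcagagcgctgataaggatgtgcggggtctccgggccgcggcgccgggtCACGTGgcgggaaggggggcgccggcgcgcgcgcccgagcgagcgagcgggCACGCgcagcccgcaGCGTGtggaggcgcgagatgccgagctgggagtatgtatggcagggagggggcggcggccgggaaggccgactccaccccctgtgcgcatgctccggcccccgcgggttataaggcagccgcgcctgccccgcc
Slc16a3, chr11:120948817-120949066, plus strand: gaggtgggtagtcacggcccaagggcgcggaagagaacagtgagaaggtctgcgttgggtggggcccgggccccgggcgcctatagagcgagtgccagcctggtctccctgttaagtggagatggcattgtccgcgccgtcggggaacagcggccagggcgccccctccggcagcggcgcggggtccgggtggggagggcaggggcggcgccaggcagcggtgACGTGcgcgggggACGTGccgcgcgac
In these stretches CACGTG occurred in Ldha and Slc16a1 and not in Ldhb or Slc16a3, and the window of Ldha's other start had none. Other leading and minor isozymes did not divide this way. CACGTG was found in windows of 6 genes, which beside Ldha and Slc16a1 were the leading Pfkfb3 and the minor Pfkfb2, Pfkm and Pdk2, and in none of Hk2, Pkm, Gapdh, Aldoa or Eno1. Over the full windows of 300 bases that RefSeq starts give, 33 of the 34 genes had 53 windows, of which 11.3% held CACGTG, 41.5% ACGTG and 49.1% GCGTG. Among all 32851 windows of mouse genes the shares were 7.15%, 19.6% and 32.4%. These are matches of letters, not measured binding, and the windows of 1 gene can overlap.

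Pyruvate dehydrogenase kinases switch off the enzyme that sends pyruvate into the tricarboxylic acid cycle. Pdk3 (chromosome X) was at 55.4, 52.9, 52.4 and 50.1 TPM in replicates 1 to 4. Pdk1, the isozyme known as a hypoxia target, was at 28.7, 30.05, 30.7 and 29.1 TPM. Pdk3 was the higher in 4 of 4 libraries, by 1.70-fold to 1.93-fold, and by principal transcripts by 1.43-fold on average. Pdk2 was at 1.51 ± 0.254 TPM. Pdk4, the isozyme of fasting, was not detected, with a floor of 0.117 TPM in the shallowest library. Pdk3 was at least 429.8-fold above that gene's highest floor.

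**Figure D2:**
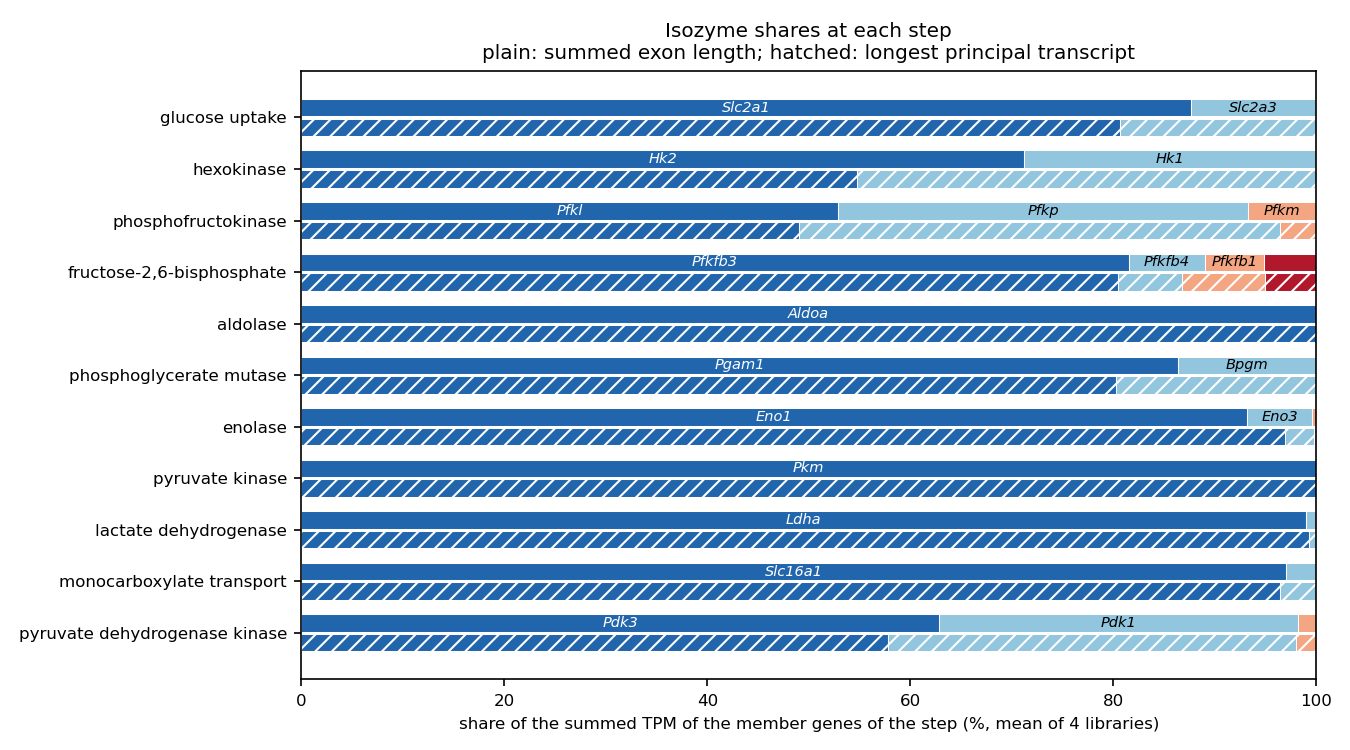
Share (%) of the summed TPM of a step held by each isozyme, mean of 4 libraries, with plain bars for the summed exon length and hatched bars for the longest principal transcript; the unlabelled dark red part is Pfkfb2. Hk2 falls to 54.8% and Pfkl to 49.0% with the principal transcript, while the leading isozyme stays the same at all 11 steps that have several members.

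In the order of all 34 genes by level, 10 of the 33 neighbouring pairs had overlapping ranges over the 4 libraries. Near the top the order was Ldha, Pkm, Gapdh, Aldoa, Tpi1, Eno1 and Pgk1, with no overlap between neighbours. Below them the ranges of Slc16a1 and Gpi1 overlapped, as did those of Pgam1 and Hk2, and of Slc2a1 and Pfkp. These overlaps hold for the summed exon length. By principal transcripts Gpi1 was at 343 ± 8.41 and Slc16a1 at 158 ± 3.79 TPM, and Pfkp at 158 ± 5.42 and Slc2a1 at 76.6 ± 2.48 TPM. With unshared words as length Pgam1 was at 258 and Hk2 at 159 TPM. Summed by step, the enzymes and transporters from uptake to phosphofructokinase, its regulators aside, lay between 118 ± 3.45 TPM for uptake and 250.5 ± 9.09 TPM for phosphofructokinase. Lactate dehydrogenase, pyruvate kinase, Gapdh and aldolase lay between 3231 ± 101 and 1085 ± 42.3 TPM. Phosphoglycerate mutase, at 191 ± 8.41 TPM, was the lowest of the enzyme steps from aldolase to lactate dehydrogenase. The rank of the middle steps depends on the length used: phosphoglycerate kinase was at 301 ± 5.61 TPM by principal transcripts and at 769 ± 14.3 TPM without shared words, and enolase at 738 ± 31.2 and 557 ± 23.8 TPM.

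**Figure D3:**
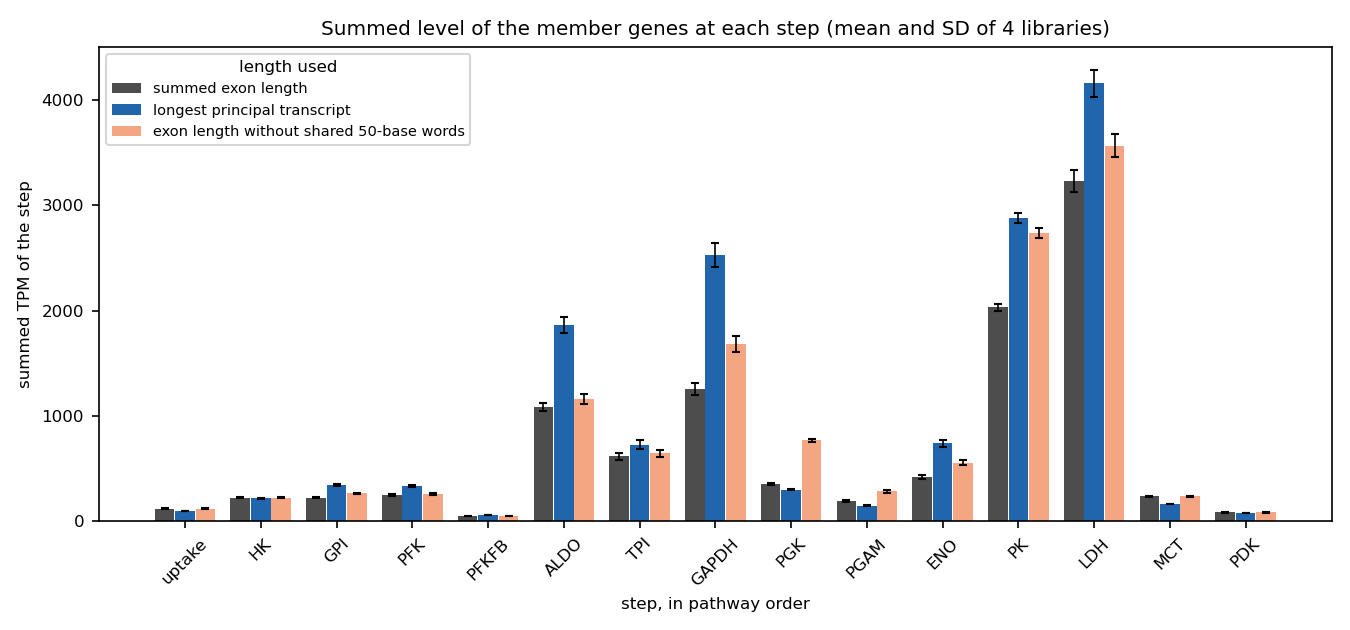
Summed TPM of the member genes at each step in pathway order, mean and SD of 4 libraries, with 3 ways of setting gene length. Lactate dehydrogenase is the highest and pyruvate kinase next with each of these 3 lengths, whereas phosphoglycerate kinase moves between 301 and 769 TPM. Median protein-coding transcripts, which put Pkm above Ldha, are not shown.

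Genes that neighbour the pathway were read from lists beside the 34. Of 18 other isozymes of the same steps, 4 reached 1 TPM in every library and 7 had no fragment. The highest was Adpgk, an ADP-using glucokinase, at 34.4 TPM, followed by the transporters Slc2a8 at 3.83, Slc2a9 at 1.96 and Slc2a6 at 1.65 TPM, and among those with no fragment was the insulin-responsive transporter gene Slc2a4. All 10 genes for pyruvate entry into mitochondria reached 1 TPM and 9 reached 10 TPM. The pyruvate dehydrogenase subunit genes Pdhb, Pdha1, Dld and Dlat were at 245, 224, 150 and 77.6 TPM, and the lowest was the phosphatase gene Pdp1 at 5.88 TPM. Of 9 genes of the reverse, glucose-making direction and its by-pass, 5 reached 1 TPM and 3 had no fragment. Tigar, G6pc3, Slc37a4 and Pck2 were at 57.0, 43.5, 14.3 and 4.15 TPM, while the liver enzymes G6pc, Fbp1 and Fbp2 had no fragment. All 7 genes of the pentose phosphate pathway, which branches off at glucose phosphate, were above 10 TPM, with Tkt at 284, Taldo1 at 191, G6pdx at 103 and Pgd at 79.3 TPM, and Pgls the lowest at 33.5 TPM.

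The glycolysis genes varied little between the libraries. The fold between the highest and the lowest library was 1.04 for Pkm and for Pgk1, 1.07 for Ldha and 1.11 for Gapdh. It was larger among genes of low level, such as 1.57 for Pfkfb1 and 1.54 for Eno2. In edgeR's quasi-likelihood fit, 0 of the 29 members that passed the filter on low counts were called more variable than genes of their abundance. The limit was an adjusted p under 0.05 over 11847 genes, one-sided, at which 0.304% of all tested genes were called. At an unadjusted p under 0.05 there were 3, against 5.69% of all tested genes. They were Gapdh, Tpi1 and Aldoa, with edgeR adjusted p of 0.759, 0.794 and 0.850. Limma-trend also called 0 members, with 3 at an unadjusted p under 0.05. On simulated counts the edgeR test recovered 59% of genes with an added SD of 0.25 on the log2 scale, so smaller spreads can go uncalled. That spread was added only to genes with higher counts. The 59% therefore does not cover members of low count, such as Pfkfb1 and Eno2, with means of 112 and 70 fragments. Among the 12 genes at 100 TPM or more in every library the median coefficient of variation was 4.03%, and among the 1898 protein-coding genes at that level it was 2.61%. Replicate 4 was the highest library for 11 of the 29 genes at 1 TPM or more and replicate 1 the lowest for 11. Between replicates 1 and 2 and replicates 3 and 4, which Xist and Ddx3y split, 12 of these 29 genes (41.4%) did not overlap. Of these, 3 were higher and 9 lower in replicates 1 and 2. The share was 35.5% for the 9761 protein-coding genes at 1 TPM or more, so such a split is not particular to glycolysis genes. Of those 3465 protein-coding genes, 1795 were higher and 1670 lower in replicates 1 and 2. Whether the directions of the glycolysis genes differ from these was not tested. The glycolysis genes higher in replicates 1 and 2 were Pfkfb4, Slc16a1 and the X-linked Pdk3. Gpi1, Tpi1, Gapdh and Eno1 were among those lower. The part of the libraries' source in these differences was not tested.

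**Figure D4:**
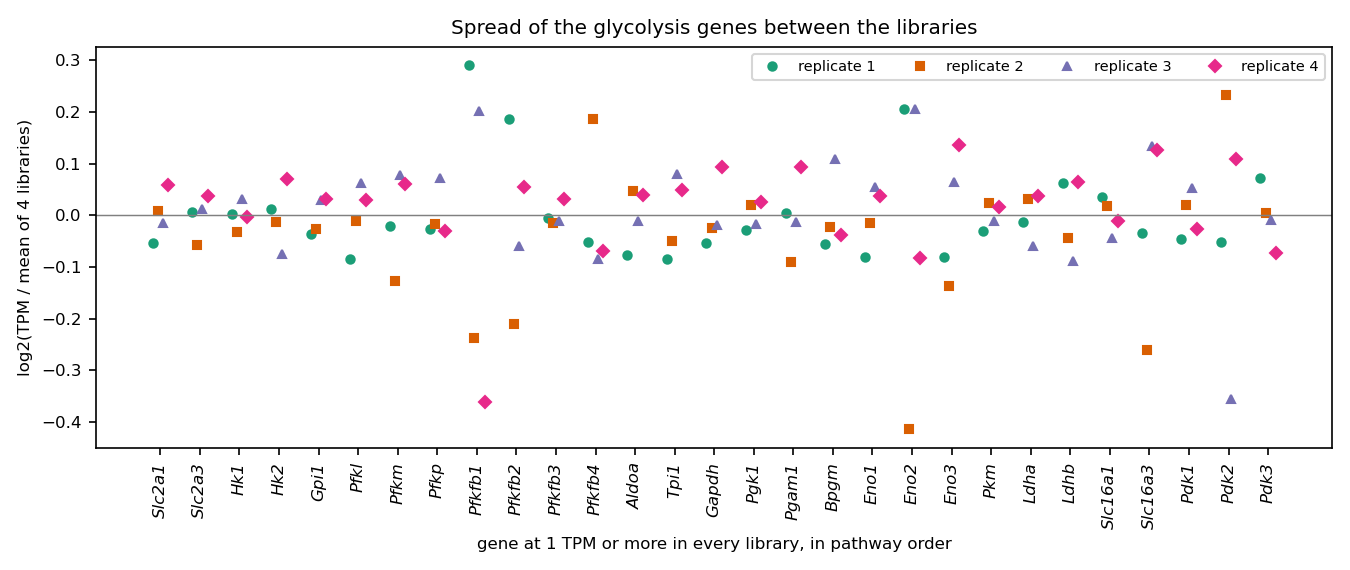
Log2 of TPM over the mean of the 4 libraries for the 29 genes at 1 TPM or more in every library, in pathway order, with a symbol for each replicate. The 12 genes at 100 TPM or more lie within 0.1 of 0, and the widest spreads are those of Pfkfb1, Eno2, Pdk2 and Slc16a3.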

How the data were processed

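For each gene the authors deposited a raw fragment count and the summed length of its exons, made per the file headers with featureCounts 1.4.6-p4 (paired ends, both aligned, reverse strand, exons summed by gene) and the GENCODE vM13 annotation on mm10. The headers name no option for fragments that align to several places or overlap several genes, and by the program's default both are left out.

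Symbols came from GENCODE vM21 (mm10), which matched 50376 of 50600 identifiers with the version ignored. TPM was count over exon length, scaled to 1000000. Isozymes were compared within libraries on log2(TPM + 1), a scale that understates differences of low genes, with an exact sign-flip permutation test and Benjamini-Hochberg adjustment over 29 pairs. Spread between replicates was tested on all genes with edgeR 4.0.16 in R 4.3.3 (TMM, filterByExpr, intercept only, robust prior, prior degrees of freedom set to the largest estimate, 24.8), a script tested on simulated data. All 34 genes were named, with the 4 highest and the lowest of each neighbouring list, and the members of smallest p in the test of spread. Other genes were named, and the split by Xist was counted, after values were seen. Members and lists were chosen with earlier results of these data known. Alternatives were another pseudocount, 4 other lengths, TPM without mitochondrial and ribosomal RNA genes, DESeq2 1.42.0 size factors, other filters and priors, limma 3.58.1, words of 100 bases, and each replicate left out. The lengths by principal transcript, unshared words and unshared exon bases were chosen after seeing the data. Shared words were sought in transcripts, since no genome was used here, and proteins were not analysed here. Python 3.11.15 was used for the rest.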

Additional observations from a re-analysis of the deposited data

Results flagged for a closer look

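Of 61 sets of 4 values examined, 3 had a library whose gap to the nearest other was large for the range of the set. Chance flags about 1 in 20 such sets. Pfkp, a phosphofructokinase isozyme, was at 106 TPM in replicate 3 and between 99.07 and 100.04 TPM in the others. Pfkfb4, an enzyme of the regulatory sugar bisphosphate, was at 4.198 TPM in replicate 2 and between 3.48 and 3.56 TPM in the others. Pgam2, the muscle mutase, was at 0.162 TPM in replicate 2, which is 1 fragment, and at 0 in the others.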

How the results depend on the processing

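Of the 29 isozyme pairs, 28 had the same direction in every library, with the gene of higher mean level ahead. Pairs with that gene ahead in every library numbered 24 with the median transcript length and 27 with the principal transcript. Under every other alternative they numbered 28 or 29. Dividing by the median length of a gene's protein-coding transcripts reversed 5 pairs. Hk2 minus Hk1 was then -1.46 on the log2 scale, Pfkl minus Pfkp -0.49, Pfkfb1 minus Pfkfb2 -0.30, Pfkfb4 minus Pfkfb1 -0.21 and Pfkfb4 minus Pfkfb2 -0.52. Pkm, at 6325 TPM, was then above Ldha, at 5983 TPM, and 9 of the 11 steps kept their leading isozyme. With that length 21 of the 29 genes at 1 TPM or more moved by over 1.5 times in level, and 7 did with the principal transcript and 2 with unshared words. That median is 581 bases for Hk1, whose principal transcript has 3851. With the longest principal transcript, Pfkfb4 minus Pfkfb1 was -0.26. Pfkfb1 minus Pfkfb2 was -0.061 with unshared words as length and -0.070 without bases shared with a gene on the same strand. The other pairs kept their direction under these lengths, and all 29 did with a pseudocount of 0.1, without mitochondrial and ribosomal RNA genes, and without any 1 replicate. For the 28 pairs with 1 direction in every library, those last settings could not have reversed it. A pseudocount or a common scaling keeps the order of 2 levels in a library, and leaving out a replicate keeps a direction that all 4 share. Leaving out a replicate cannot move a mean of 4 values beyond 1 of their SDs. That limit therefore could not test how levels and shares depend on a single replicate. The count of variable genes, 36, was 94 with no filter beyond 1 fragment, 17 without the robust prior and between 15 and 37 without 1 replicate (15 without replicate 4), and it was 0 among the members each time. With words of 100 bases, 7 genes shared over 10% of their words, against 9 with 50 bases. No paired analysis was possible because there was 1 group, so that replicate numbers pair no samples of different groups (isozymes were compared within each library). Depth limits Hk3, Aldoc, Pgam2, Pklr and Pdk4, which had 30 fragments or fewer in all.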
